A study of Mus musculus with 8 samples.

Results

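Chromatin accessibility was described here at 9 mouse genes of the fibroblast growth factor (FGF) pathway: the ligand genes Fgf3, Fgf8, Fgf15 and Fgf17, the feedback inhibitor genes Spry1 and Spry2, and the ETS-family transcription factor genes Etv1, Etv4 and Etv5. The members were chosen by name. Peaks of the 8 samples that overlapped a gene body or the 20 kb upstream of it in GRCm38 were merged where they overlapped, which gave 64 regions of the 292532 merged regions in the series. Of these, 26 had a peak in all 8 samples, against 68274 in the whole series, and these 26 entered the tests of regions. Regions were numbered from upstream to downstream within each member, so that Fgf3-e3 is the third region of Fgf3.

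Single-nucleus ATAC-seq, which counts transposase cuts in open chromatin of each nucleus, was performed on wild-type (WT) mouse embryonic brain. The 4 groups of 2 samples were the cortex (CTX) and the medial, lateral and caudal ganglionic eminences (MGE, LGE and CGE), the ventral neurogenic structures jointly called GEs. The labels give E14.5 for CTX replicate 2 and E12.5 for the other 7 samples, so the CTX group held 1 sample of each age. Nothing in the labels said whether 2 samples of a region came from different litters, and p-values therefore measure the spread between these samples, which may be technical.

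FGF ligands bind receptor tyrosine kinases and signal through the Ras and MAP kinase cascade. In many tissues that cascade switches on Etv genes, whose products carry part of the transcriptional response, and Sprouty genes, whose products dampen the cascade. In the early forebrain, Fgf8, Fgf17 and Fgf3 are known from rostral signalling centers that pattern the telencephalon, and Fgf15 from progenitors. Accessibility was measured here, not expression.

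Depth ranged from 77387940 to 138873845 counts in peaks per sample, over 39253 nuclei in all, and 15 to 56 barcodes were shared by each pair of samples. The dissection labels were checked on marker genes. Nkx2-1 and Lhx6 were called higher in MGE against either of the other eminences, and Lhx8 against CGE but not LGE. Emx1 and Neurod6 were called higher in CTX, Tbr1 was not, and Dlx1, Dlx2 and Gad2 were called lower. Gsx2, Ebf1 and Isl1 were not called between LGE and either other eminence. Both LGE samples lay below both CGE samples for Ebf1 and below both MGE samples for Isl1. Prox1 was not called, and both its MGE levels lay above both CGE levels. No checked gene was called between LGE and CGE, although Nr2f1 and Nr2f2 were higher in both CGE samples than in both LGE samples. The LGE label therefore had no called marker of its own. The CTX samples stood apart from each other. CTX replicate 1, labelled E12.5, had 93.8% of its nuclei in a glutamatergic neuron-like cluster in which CTX replicate 2 had 0 nuclei, and CTX replicate 2, labelled E14.5, had 70.5% of its nuclei in an unnamed cluster in which CTX replicate 1 had 0. At a finer Leiden resolution of 1.0, 2827 nuclei of CTX replicate 1 stayed in a glutamatergic neuron-like cluster, and 1003 formed an unnamed cluster with 3 progenitor and 3 glutamatergic markers raised. Neurod6, a gene of differentiating glutamatergic neurons, was at 133 CPM (counts scaled to the sample's total in the features tested) in CTX replicate 1 and 61.4 CPM in CTX replicate 2, although cortical neurons accumulate with age. Whether the ages and dissections of the CTX samples are as labelled was not tested, and age and sample cannot be told apart within CTX. CTX comparisons of called or discordant regions are therefore also given without either CTX sample. The single CTX sample left is then assumed to vary as the GE samples do, since the spread comes from those alone.

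The following sequences are shown because they lie in the regions that were called: the promoter of Fgf3, whose start region was less accessible in CTX, and the 300 bases most widely shared among samples in the 3 distal ones. Counts were compared over whole regions and not within these 300 bases. Sequences are from RefSeq (Fgf3 promoter) and from the GRCm38 genome, plus strand, at chr7:144838362-144838661 for the Fgf3 promoter, chr16:22389223-22389522 for Etv5-e13, chr16:22429433-22429732 for Etv5-e6 and chr12:38788601-38788900 for Etv1-e4. Capitals mark GGAA or its complement TTCC, the core of ETS-type binding sites, the kind that Etv proteins recognise.
Fgf3 promoter: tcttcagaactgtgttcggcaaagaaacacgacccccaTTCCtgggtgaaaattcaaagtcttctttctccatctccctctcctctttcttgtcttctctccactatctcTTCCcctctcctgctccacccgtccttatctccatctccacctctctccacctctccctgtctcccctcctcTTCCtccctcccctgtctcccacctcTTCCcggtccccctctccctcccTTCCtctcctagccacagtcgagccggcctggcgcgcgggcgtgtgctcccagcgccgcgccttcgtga
Etv5-e13: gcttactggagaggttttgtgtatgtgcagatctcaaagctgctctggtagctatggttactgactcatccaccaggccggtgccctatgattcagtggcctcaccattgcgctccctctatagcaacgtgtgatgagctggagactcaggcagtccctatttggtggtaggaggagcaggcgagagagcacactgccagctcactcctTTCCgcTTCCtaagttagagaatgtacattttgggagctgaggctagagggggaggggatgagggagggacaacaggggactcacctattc
Etv5-e6: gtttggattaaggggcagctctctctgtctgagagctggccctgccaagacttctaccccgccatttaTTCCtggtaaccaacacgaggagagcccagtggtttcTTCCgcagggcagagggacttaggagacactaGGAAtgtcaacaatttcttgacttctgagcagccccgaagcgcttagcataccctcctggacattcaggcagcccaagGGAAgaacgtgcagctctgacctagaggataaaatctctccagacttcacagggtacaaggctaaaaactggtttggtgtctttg
Etv1-e4: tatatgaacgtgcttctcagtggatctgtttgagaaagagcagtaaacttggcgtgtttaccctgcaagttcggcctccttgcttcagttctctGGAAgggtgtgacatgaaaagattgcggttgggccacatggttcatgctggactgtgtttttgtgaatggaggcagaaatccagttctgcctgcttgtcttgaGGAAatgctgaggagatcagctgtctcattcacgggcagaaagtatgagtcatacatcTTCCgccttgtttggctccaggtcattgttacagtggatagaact

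The core occurred 5 times in the Fgf3 promoter, 2 times in Etv5-e13, 4 times in Etv5-e6 and 3 times in Etv1-e4. It is common: 95.9% of the 300-base windows of the 68274 regions held it at least once. The longer ETS sequence CCGGAAGT, which contains the core, was in none of the 4 sequences on either strand, and 1.34% of all region windows and 3.89% of RefSeq promoters held it. The homeodomain core TAATTA, searched for after the values were seen, was also in none of the 4, against 10.6% of region windows. Promoter entries were matched for Fgf3, Spry1, Spry2, Etv1 and Etv5, and not for Fgf8, Fgf15, Fgf17 and Etv4.

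The 64 regions were unevenly shared among samples. A peak in all 8 samples was found for 26 of them, or 40.6%, against 23.3% of all merged regions, and a peak in a single sample for 20, or 31.2%, against 36.3%. Of those 20, CTX replicate 2 had 8, CTX replicate 1 had 6, CGE replicate 2 had 3, MGE replicate 2 had 2 and LGE replicate 2 had 1. They reached at most 2.58 CPM. All 11 regions over an annotated start site had a peak in every sample, as did 6 of 22 upstream regions, 6 of 23 intronic regions and 3 of 8 exonic regions. The deposited counts exist only inside a sample's own peaks, so a region with no peak in a sample is listed at 0 there whatever the reads.

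**Figure D1:**
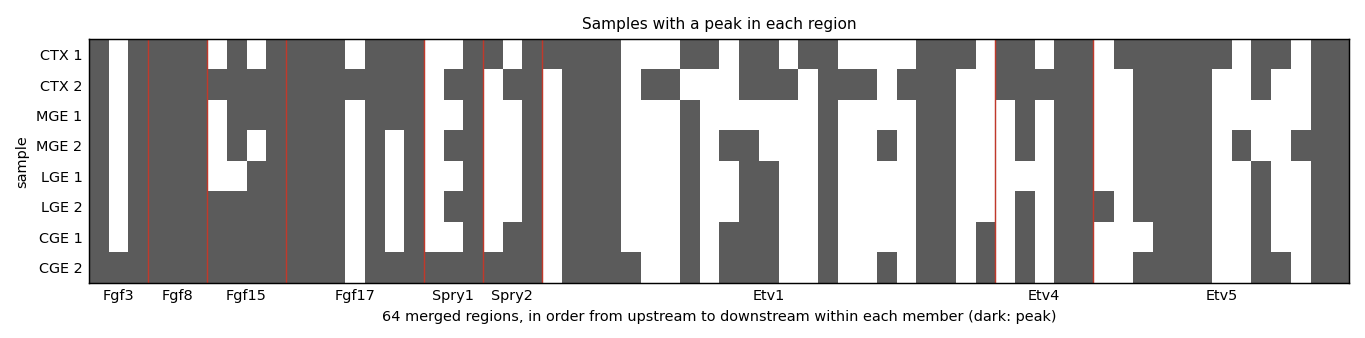
Peak calls at the 64 merged regions of the 9 members. Columns are regions, rows are the 8 samples, and dark cells are peaks; red lines part the members. Fgf8 had a peak in every sample at all 3 of its regions, and the gaps lie mainly in the long Etv1 and Etv5 loci.

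Peaks confined to samples of 1 dissected region were found in both replicates at 2 places. Etv4-e1 at -16378 bp from the Etv4 start (chr11:101801327-101802170), had a peak in the CTX samples alone, at 1.09 CPM in CTX replicate 1 and 2.79 CPM in replicate 2. Etv1-e23, in an Etv1 intron (chr12:38864441-38864769), had a peak in the CGE samples alone, at 0.665 and 0.481 CPM. These levels were low. Etv4-e2, at -5723 bp from the Etv4 start and named after its values were seen, was at 6.32 and 7.92 CPM in CTX and between 0 and 1.27 CPM in the 6 GE samples. When every merged region was tested, edgeR called neither Etv4-e1 nor Etv4-e2 for CTX against GE (adjusted p = 0.0908 and 0.197). Etv1-e12 and Etv5-e9, also named after their values were seen, are exonic regions with a peak in both samples of CTX, LGE and CGE and in neither MGE sample. Etv1-e12 was at 8.76 and 15.3 CPM in CTX, 1.37 and 1.68 CPM in LGE, 2.39 and 1.42 CPM in CGE, and listed at 0 in MGE. Etv5-e9 was at 3.68 and 2.49 CPM in CTX, 3.07 and 3.24 CPM in LGE, 1.89 and 1.32 CPM in CGE, and listed at 0 in MGE. They were singled out for their missing MGE peaks, so no test or fold is given.

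The sum of counts over each member's body and 20 kb upstream gave few calls between regions. In edgeR's quasi-likelihood test, 1 of 9 members, Fgf3, was called between CTX and the GEs at an adjusted p of 0.05 or less, against 5.46% of all 18595 gene windows tested (4.49% higher and 0.979% lower in CTX). The median log2 fold was 0.03 over the 9 members and 0.00 over all gene windows. None of the 9 was called among the GEs, where 20 of 18362 gene windows (0.109%) were called for MGE against LGE, 20 (0.109%) for MGE against CGE and 0 (0%) for LGE against CGE. Without adjustment, p was under 0.05 for 3 members between MGE and LGE, 1 between MGE and CGE and 2 between LGE and CGE, against 9.91%, 10.9% and 3.78% of all gene windows, and DESeq2 called 0 of the 9 in these comparisons, against 3.66%, 3.52% and 0.55% of all gene windows. MGE samples served in 2 of these comparisons, so they are not independent.

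**Figure D2:**
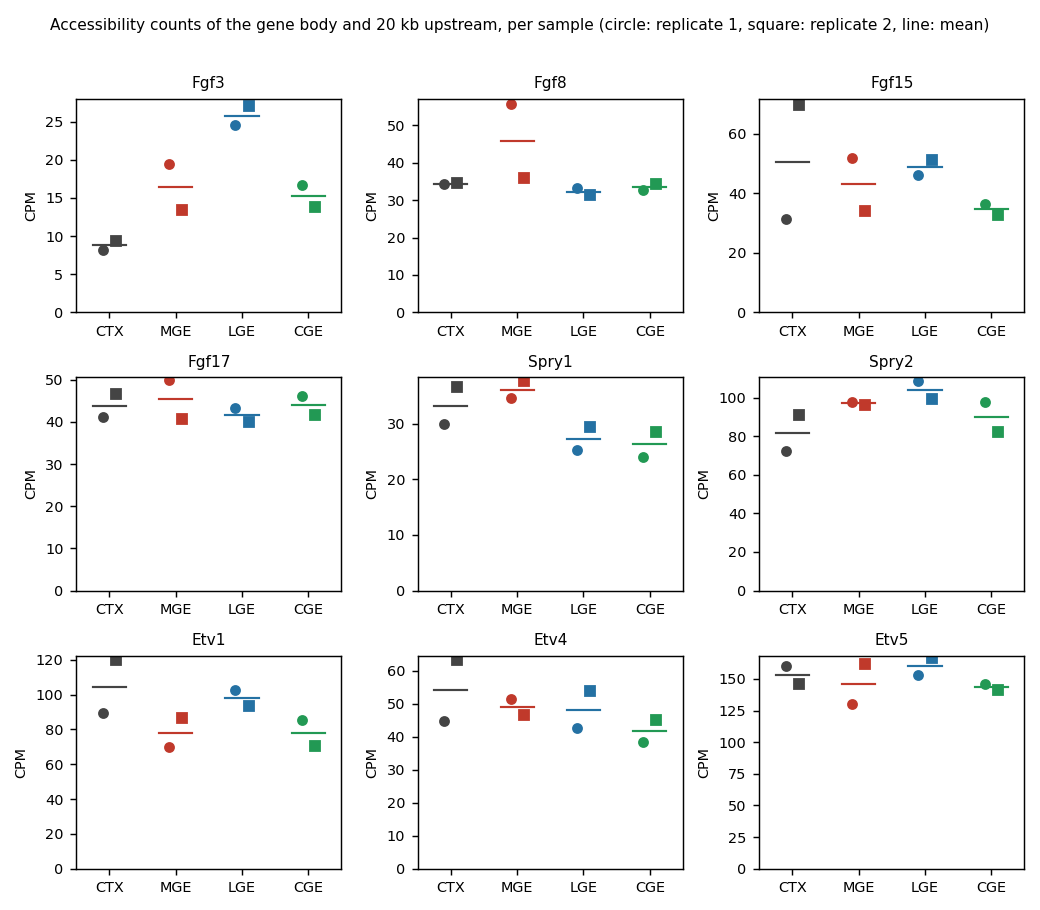
Locus level of each member in CPM (y axis, from 0) by dissected region (x axis). Circles are replicate 1, squares replicate 2 and lines the mean of 2 samples; Fgf3 is lower in both CTX samples than in the 6 GE samples, and most other members overlap.

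At single regions, 2 of 26 were called between CTX and the GEs, or 7.69%, against a background of 14.9% of all 68274 regions (9.49% higher and 5.39% lower in CTX). Between MGE and LGE 2 of 26 were called, again 7.69% against 10.6% (4.86% higher and 5.79% lower in MGE). Between MGE and CGE 0 of 26 were called in edgeR's test against 9.4%, with 6 at an unadjusted p under 0.05 (23.8% of all regions were), and DESeq2 called 5 against 15.7% of all regions. Between LGE and CGE 0 of 26 were called in edgeR's test against 0.00293%, with 5 at an unadjusted p under 0.05 (12.1% of all regions were), and DESeq2 called 2 against 4.03%. In edgeR's test the members' shares were no higher than the background where more than a few regions were called. The median log2 fold of the 26 was 0.10, -0.04, 0.16 and 0.12 in the 4 comparisons in this order, and that of all regions 0.03, -0.01, 0.00 and 0.01.

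**Figure D3:**
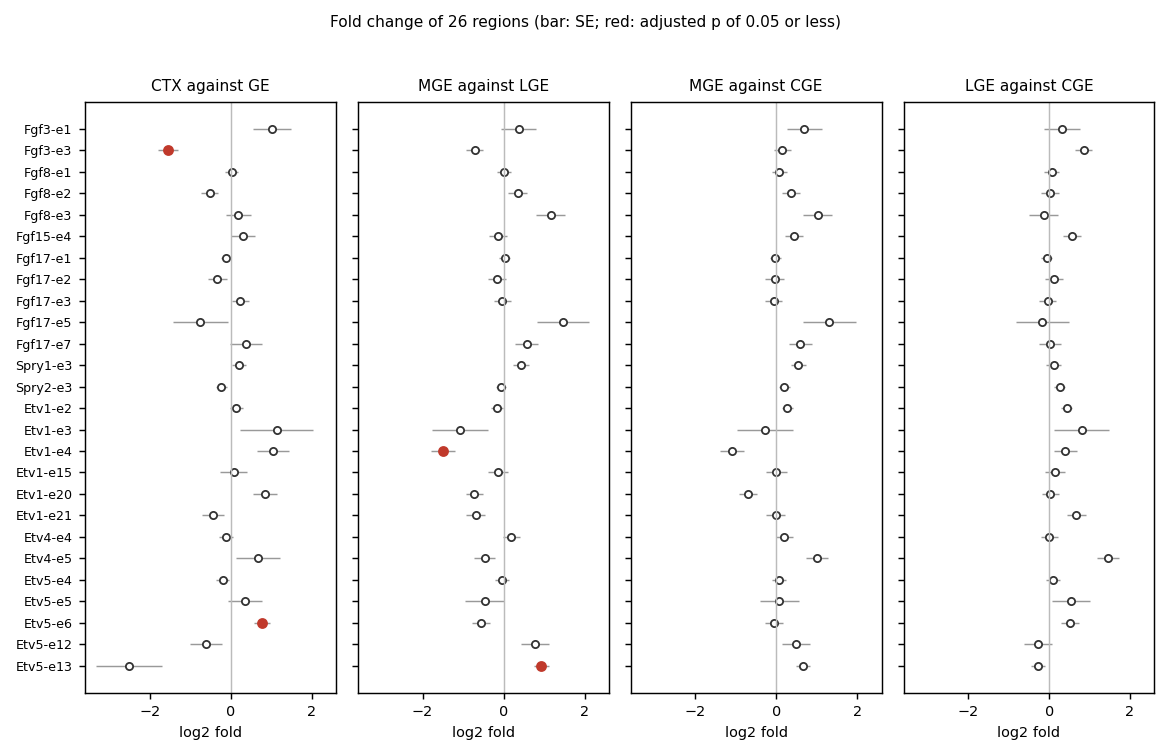
Log2 fold change of the 26 regions with a peak in all 8 samples (x axis) in the 4 comparisons, with bars for the SE and red points for adjusted p of 0.05 or less. The called regions are Fgf3-e3 and Etv5-e6 for CTX against GE, and Etv1-e4 and Etv5-e13 for MGE against LGE.

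Among the ligands, Fgf3 was the member that differed between cortex and eminences. Its locus was at 8.22 and 9.31 CPM in the CTX samples, 19.4 and 13.4 CPM in MGE, 24.5 and 27.0 CPM in LGE, and 16.7 and 13.8 CPM in CGE. Both CTX samples lay below all 6 GE samples. The means were 8.77 ± 0.764 CPM in CTX (SD, n = 2) and 19.1 ± 5.64 CPM in the GEs (SD, n = 6), and edgeR called the locus lower in CTX (log2 fold -1.09, SE 0.20, adjusted p = 0.0255). Without CTX replicate 1 the log2 fold was -1.0 (adjusted p = 0.0681), and without CTX replicate 2 it was -1.18 (adjusted p = 0.0251). The call was also lost without either of the LGE samples or either of the CGE samples, at adjusted p from 0.0529 to 0.0663, and with an offset for the length that peaks covered (log2 fold -0.92, adjusted p = 0.115). LGE stood highest, above MGE and CGE, and MGE and CGE overlapped.

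Fgf3-e3 (chr7:144837550-144840036), which covers the Fgf3 start sites and the promoter shown above, held most of this difference. It was at 8.44 and 5.93 CPM in CTX, 21.7 and 15.3 CPM in MGE, 27.5 and 32.6 CPM in LGE, and 17.4 and 16.2 CPM in CGE. Again both CTX samples were lowest and both LGE samples highest. The log2 fold of CTX against GE was -1.55 (SE 0.24, edgeR adjusted p = 0.00851). It was called without CTX replicate 1 (log2 fold -1.81, adjusted p = 0.00259) and without CTX replicate 2 (log2 fold -1.31, adjusted p = 0.00849). Peaks covered 1817 and 1818 bp of it in CTX and 2195 to 2470 bp in the GEs, and per covered kilobase the level was 4.64 and 3.26 CPM in CTX against 6.95 to 13.2 CPM in the GEs. The higher level in LGE was not called by edgeR, at 0.85 over CGE on the log2 scale (SE 0.21, adjusted p = 0.17) and -0.71 for MGE against LGE (SE 0.21, adjusted p = 0.0775). DESeq2 called both (adjusted p = 0.011 and 0.0235), and edgeR called the second without MGE replicate 1 (log2 fold -0.96, adjusted p = 0.0405). The other tested Fgf3 region, Fgf3-e1, at -14218 bp from the start, was at 1.25 to 2.94 CPM in 7 samples and at 5.97 CPM in CTX replicate 2.

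Fgf8, the organizer ligand of the rostral forebrain, was open in every sample. Its start region Fgf8-e3 was the widest member region at 7440 bp (chr19:45736432-45743871) and was at 17.5 and 19.4 CPM in CTX, 35.7 and 17.6 CPM in MGE, 9.37 and 14.6 CPM in LGE, and 11.6 and 14.9 CPM in CGE. MGE replicate 1 was highest, and both MGE samples lay above LGE and CGE. The log2 differences were 1.16 for MGE against LGE (SE 0.36, edgeR adjusted p = 0.0853) and 1.02 for MGE against CGE (SE 0.36, adjusted p = 0.13), and neither passed. DESeq2 called both (adjusted p = 0.00977 and 0.0285), as did edgeR without MGE replicate 2 (log2 folds 1.59 and 1.45, adjusted p = 0.0242 and 0.0315). Without MGE replicate 1 the log2 differences were 0.58 and 0.43, and with the covered-length offset 0.16 and 0.57. Peak calls covered 7432 bp of Fgf8-e3 in MGE replicate 1 and 2273 bp in LGE replicate 1, and per covered kilobase the samples ranged from 2.91 to 4.81 CPM. Fgf8-e1 and Fgf8-e2 also lie over the start and the body of the neighbouring gene Npm3, and 49.6% to 76% of the Fgf8 locus counts came from these shared regions.

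Fgf15, a ligand gene known from neural progenitors, had nearly all of its counts (95.4% to 99.5%) in its start region Fgf15-e4 (chr7:144894016-144898962). That region was at 38.1 and 86.1 CPM in CTX, 64.6 and 43.5 CPM in MGE, 53.0 and 64.8 CPM in LGE, and 39.8 and 40.1 CPM in CGE. The CTX samples were the lowest and the highest of the 8, so no cortical level can be given beyond their spread. The log2 fold of CTX against GE was 0.80 without CTX replicate 1 (edgeR adjusted p = 0.0329) and -0.39 without CTX replicate 2 (adjusted p = 0.289).

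The start region of Fgf17, Fgf17-e5 (chr14:70641569-70643133), was nearly closed at 0.442 to 3.97 CPM, with the 2 highest values in MGE. From 82.1% to 88.3% of the Fgf17 locus counts lay in regions shared with Npm2, Xpo7 or Dmtn, among them Fgf17-e1 at the Npm2 start, which was at 26.6 to 32.5 CPM in all samples. Its log2 fold ranged from -0.12 to 0.03 over the 4 comparisons. Fgf17-e7, centred 6116 bp from the Fgf17 start, covers the start of Dmtn. The locus sum of Fgf17, 43.8 ± 3.87 CPM in CTX (SD, n = 2) and 43.6 ± 3.85 CPM in the GEs (SD, n = 6), is therefore mainly that of its neighbours.

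Both Sprouty genes, which encode feedback inhibitors of receptor tyrosine kinase signalling, were open in every region. The Spry2 start region Spry2-e3 (chr14:105892706-105899605) was at 88.5 and 116 CPM in CTX, 124 and 124 CPM in MGE, 128 and 129 CPM in LGE, and 112 and 104 CPM in CGE. CTX replicate 1 was lowest and LGE highest, and no comparison was called, the log2 folds lying between -0.23 and 0.26. The Spry1 start region Spry1-e3 (chr3:37639374-37644224) was at 37.1 and 46.8 CPM in CTX, 44.0 and 47.5 CPM in MGE, 29.7 and 38.0 CPM in LGE, and 27.5 and 35.3 CPM in CGE. Both MGE samples lay above the LGE and CGE samples. The difference of MGE from CGE, 0.54 on the log2 scale (SE 0.19, edgeR adjusted p = 0.127), did not pass and turned to -0.49 with the covered-length offset, while DESeq2 called it (log2 fold 0.57, adjusted p = 0.047). Peaks covered 4163 and 4249 bp of Spry1-e3 in MGE against 2131 and 2009 bp in CGE.

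The 3 Etv genes encode the ETS factors that commonly act downstream of FGF receptors in many tissues. Etv1-e2 (chr12:38777809-38781845) ranged from 59.1 CPM in CGE replicate 2 to 96.4 CPM in CTX replicate 2. Etv4-e4 (chr11:101782994-101786094) ranged from 37.9 CPM in LGE replicate 1 to 55.1 CPM in MGE replicate 1. Etv5-e4 (chr16:22437691-22441211) ranged from 92.6 CPM in CTX replicate 1 to 136 CPM in LGE replicate 2. None of the 3 was called in any comparison, and their log2 folds lay between -0.20 and 0.43. The Etv regions that were called lay away from these main start sites.

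Etv5-e6 is an intronic region centred 9996 bp downstream of the Etv5 start (chr16:22428114-22431333). It was at 84.1 and 62.4 CPM in CTX, 29.5 and 44.9 CPM in MGE, 52.6 and 55.7 CPM in LGE, and 43.5 and 32.9 CPM in CGE. Both CTX samples lay above all 6 GE samples, with means of 73.2 ± 15.3 CPM (SD, n = 2) and 43.2 ± 10.4 CPM (SD, n = 6). The log2 fold was 0.78 (SE 0.20, edgeR adjusted p = 0.0405). It was 0.99 without CTX replicate 2 (adjusted p = 0.0137) and 0.58 without CTX replicate 1 (adjusted p = 0.114), and the call was also lost when MGE replicate 1 or any LGE or CGE sample was left out, at adjusted p from 0.0535 to 0.102, and when every merged region was tested (log2 fold 0.75, adjusted p = 0.091). With an offset for the covered length, which was 2876 to 3148 bp in CTX and 2113 to 2479 bp in the GEs, the log2 fold was 0.39 (adjusted p = 0.204). The call was lost under 10 of 14 alternatives, the fit without TMM scaling factors among them. Regions with a peak in all 8 samples held 77.8% and 87% of the CTX counts and 89.7% to 95.1% of the GE counts. Scaled to all counts in peaks instead, Etv5-e6 was at 52.1 CPM in CTX replicate 2 and 51.9 CPM in LGE replicate 1.

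Etv5-e13, also intronic and centred 49752 bp from the start (chr16:22389001-22390933), had the opposite pattern. It was at 4.57 and 0.385 CPM in CTX, 18.7 and 22.8 CPM in MGE, 11.1 and 10.4 CPM in LGE, and 12.9 and 13.3 CPM in CGE. The MGE samples were highest, the CTX samples lowest, and no groups overlapped. MGE was called above LGE, with means of 20.8 ± 2.90 and 10.8 ± 0.494 CPM (SD, n = 2 each) and a difference of 0.93 on the log2 scale (SE 0.18, edgeR adjusted p = 0.0169). The call was lost without LGE replicate 1 (log2 fold 1.04, adjusted p = 0.0701), without LGE replicate 2 (log2 fold 0.88, adjusted p = 0.0989) and when all 8 samples shared a fit (adjusted p = 0.745). Peaks covered 1892 and 1933 bp in MGE and 1092 and 1231 bp in LGE, and with a covered-length offset the log2 fold was 0.20 (adjusted p = 0.729). Against CGE the log2 fold was 0.66 (SE 0.18, edgeR adjusted p = 0.0605), which DESeq2 called (adjusted p = 0.00546). The lower level in CTX, -2.52 on the log2 scale (SE 0.82), missed the threshold in edgeR's test of all 8 samples (adjusted p = 0.0879). With the same samples DESeq2 called it (log2 fold -2.52, adjusted p = 0.00126), as did edgeR with the covered-length offset (log2 fold -1.63, adjusted p = 0.00948). Leaving out CTX replicate 1 gave a log2 fold of -5.19, and leaving out CTX replicate 2 gave -1.64. Each of these rests on a single CTX sample and on the spread of the GEs alone. Peaks covered 1205 bp of Etv5-e13 in CTX replicate 1 and only 192 bp in CTX replicate 2, against 1092 to 1933 bp in the GEs. Per covered kilobase the level was 3.8 and 2.0 CPM in CTX against 7.03 to 11.8 CPM in the GEs. The part of the short peak of CTX replicate 2 in the value of -5.19 was not tested.

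Etv1-e4, an Etv1 intronic region 9440 bp from the start (chr12:38788170-38789471), was at 1.88 and 1.69 CPM in MGE, 5.29 and 4.72 CPM in LGE, 4.53 and 3.12 CPM in CGE, and 10.2 and 3.26 CPM in CTX. Both MGE samples were lowest of the 8. MGE was called below LGE (1.78 ± 0.134 against 5.01 ± 0.401 CPM, SD, n = 2 each), by -1.50 on the log2 scale (SE 0.29, edgeR adjusted p = 0.0171), and against CGE the log2 fold was -1.10 (SE 0.29, adjusted p = 0.0526), which DESeq2 called (log2 fold -1.06, adjusted p = 0.0155). The call against LGE was lost without MGE replicate 1 (log2 fold -1.55, adjusted p = 0.0573), without LGE replicate 1 (log2 fold -1.35, adjusted p = 0.096) when all 8 samples shared a fit (log2 fold -1.49, adjusted p = 0.276) and when every merged region was tested (log2 fold -1.51, adjusted p = 0.0623). CTX replicate 1 alone was high: the log2 fold of CTX against GE was 1.66 without CTX replicate 2 (adjusted p = 0.00285) and 0.03 without CTX replicate 1 (adjusted p = 0.964).

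Etv4-e5, over an alternative start site within Etv4 (chr11:101771915-101773071), was at 4.93 and 26.9 CPM in CTX, 10.2 and 12.48 CPM in MGE, 12.3 and 18.6 CPM in LGE, and 4.77 and 6.46 CPM in CGE. Both CGE samples lay below the MGE and LGE samples. CTX replicate 1 was near the CGE samples, and CTX replicate 2 lay above all GE samples. The log2 fold was 1.46 for LGE against CGE (SE 0.27, edgeR adjusted p = 0.117) and 1.01 for MGE against CGE (SE 0.27, adjusted p = 0.0562), so neither was called. DESeq2 called both, with adjusted p = 0.000222 and 0.00585, and edgeR called the second without LGE replicate 1 (adjusted p = 0.0367) or LGE replicate 2 (adjusted p = 0.0472).

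**Figure D4:**
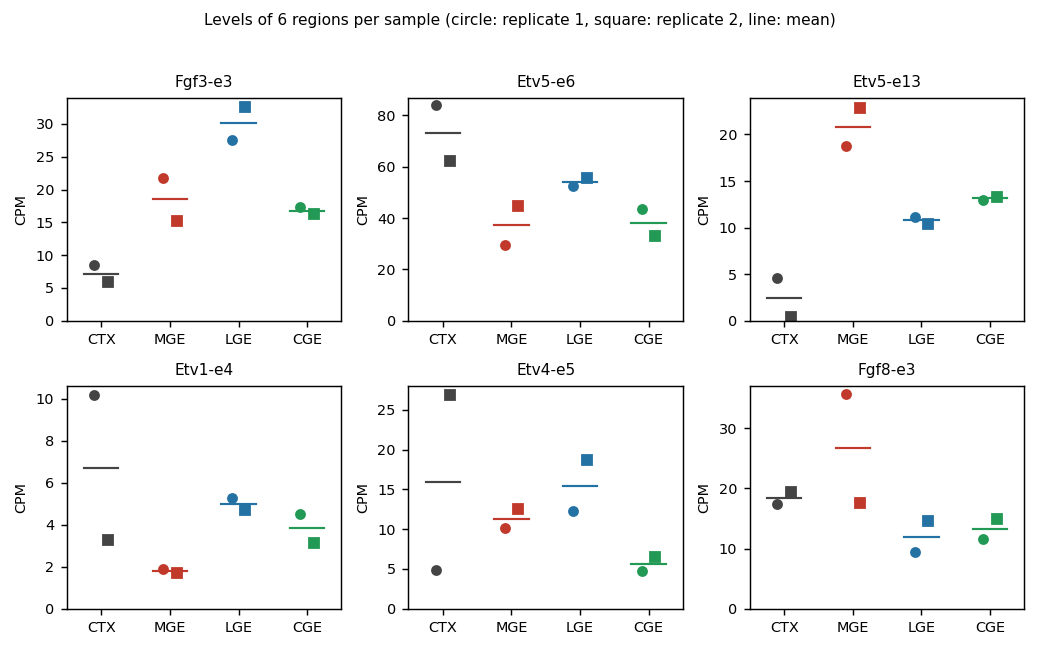
Level in CPM (y axis, from 0) of 6 member regions by dissected region. Circles are replicate 1, squares replicate 2 and lines the mean; Fgf3-e3 and Etv5-e13 are lowest in CTX, Etv1-e4 is lowest in MGE, and Etv4-e5 is at 4.93 CPM in CTX replicate 1 and 26.9 CPM in CTX replicate 2.

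The CTX counts of called regions depended on the CTX sample, and the counts that follow rest on an arm of 1 sample with the spread of the GEs. Without CTX replicate 1, 8 of 26 member regions were called, 6 higher and 2 lower in CTX, against 24.2% of all regions (12.7% higher and 11.5% lower). Without CTX replicate 2, 4 were called, 2 higher and 2 lower, against 26.3% (16% higher and 10.4% lower). Fgf3-e3 and Etv5-e13 were called lower in both cases. Fgf3-e1, Fgf15-e4, Fgf17-e7, Etv1-e3, Etv1-e20 and Etv4-e5 were called higher when CTX replicate 2 stood for the cortex, and Etv1-e4 and Etv5-e6 when CTX replicate 1 did. Of these, Fgf17-e7 covers the start of the neighbouring gene Dmtn and not that of Fgf17.

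Levels within classes of nuclei were described with no test, since nuclei of a sample are not replicates. Clusters were made without the regions of the 9 loci and named from marker lists. GABAergic neuron-like nuclei made up 53% and 58.9% of the MGE samples, 41.1% and 35% of LGE, 41.8% and 38.1% of CGE, and 4.45% and 0.445% of CTX. Progenitor-like nuclei made up 36.1% to 53.9% of each GE sample. Glutamatergic neuron-like nuclei made up 0.263% and 1.76% of the MGE samples, 13.4% and 10.4% of LGE, and 19.8% and 24.9% of CGE. Bulk levels therefore mix composition and level per nucleus, and class levels are relative to all counts of that class. Class ratios of all regions and gene windows were not computed, so those below have no background beside them.

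Fgf3-e3 and Etv5-e13 were more open in GABAergic neuron-like than in progenitor-like nuclei in 6 of 6 GE samples. Fgf3-e3 was at 53.9 and 63.3 CPM in the GABAergic neuron-like nuclei of LGE, 26.45 and 22.5 CPM in those of MGE, and 29.6 and 26.2 CPM in those of CGE, against 10.2 to 19.3 CPM in the progenitor-like nuclei of the 6 samples. Both LGE samples stood above the others in the neuron-like class, while the progenitor-like levels of LGE and MGE overlapped. In the mean over 6 samples the class ratio was 2.5, with a log2 ratio of 1.32 ± 0.40 (SD, n = 6). The 183 GABAergic neuron-like nuclei of CTX replicate 1 were at 26.4 CPM, within the range of those of MGE and CGE. Cluster 2, mostly from MGE, held most GABAergic neuron-like nuclei of MGE, and clusters 3 and 8 those of LGE and CGE. Progenitor-like nuclei were mostly of cluster 4 in MGE and of cluster 1 in LGE and CGE.

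Etv5-e13 had the larger class ratio, 4.07, with a log2 ratio of 2.02 ± 0.29 (SD, n = 6). At clustering resolution 1.0 the ratio was 7.23, with a log2 ratio of 2.85 ± 1.01 (SD, n = 6). Ratios at that resolution rest on 89 progenitor-like nuclei in LGE replicate 2 and 53 in CGE replicate 2, against 2570 and 1639 at resolution 0.5. At resolution 1.0 an unnamed cluster held 2323 nuclei of LGE replicate 2, and another held 1353 of CGE replicate 2. Each cluster had 1 progenitor marker raised, so its nuclei were not named progenitor-like. The log2 ratios of these 2 samples were 4.13 and 3.78, and those of the other 4, with 896 to 2840 progenitor-like nuclei, were 1.52 to 2.96. It was at 24.2 to 38.2 CPM in GABAergic neuron-like nuclei and 4.52 to 12.54 CPM in progenitor-like nuclei of the GE samples. In CTX replicate 1 the 183 GABAergic neuron-like nuclei were at 92.8 CPM and the 3889 glutamatergic neuron-like nuclei at 3.66 CPM. Within classes MGE stayed above LGE: 33.2 ± 7.01 against 24.6 ± 0.608 CPM in GABAergic neuron-like nuclei and 9.91 ± 3.72 against 4.94 ± 0.598 CPM in progenitor-like nuclei (SD, n = 2 each). The CGE levels, 29.6 ± 1.34 and 7.53 ± 0.561 CPM (SD, n = 2 each), overlapped those of MGE in both classes. Class counts lie in the same peaks as the bulk counts, which were longer in MGE than in LGE. They were not adjusted for covered length. The larger share of GABAergic neuron-like nuclei in MGE moved with the bulk difference as well. So did the smaller share of glutamatergic neuron-like nuclei in MGE. The part of either share in the bulk difference was not tested.

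Several other regions were lower in the neuron-like class. Etv1-e4, Etv1-e15, Etv4-e5 and Etv5-e6 were lower in GABAergic neuron-like than in progenitor-like nuclei in 6 of 6 GE samples, with mean log2 ratios of -1.38 ± 0.43, -1.17 ± 0.43, -0.81 ± 0.20 and -0.76 ± 0.23 (SD, n = 6 each). At resolution 1.0, Etv1-e15 was at -0.61 ± 0.98 and Etv5-e6 at -0.53 ± 0.48, each higher in LGE replicate 2 alone, while Etv1-e4 and Etv4-e5 were lower in 6 of 6. Among upstream regions, Fgf3-e1 was at -0.99 ± 0.73, lower in 6 of 6, and Fgf8-e1, Fgf8-e2 and Fgf17-e1 at 0.33 ± 0.20, 0.36 ± 0.17 and 0.34 ± 0.15, higher in 6 of 6. At resolution 1.0 Fgf8-e1 was at 0.16 ± 0.34, lower in CGE replicate 2 alone. Etv1-e4 kept its low MGE level in both classes, at 2.50 ± 0.263 CPM in MGE against 6.25 ± 0.842 CPM in LGE in progenitor-like nuclei (SD, n = 2 each). Etv5 held an intronic region of either kind, and its start region Etv5-e4 had a log2 ratio of 0.12 ± 0.09. Etv4-e5 was at 6.06 and 8.82 CPM in the progenitor-like nuclei of CGE against 12.6 to 21.6 CPM in those of MGE and LGE.

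Whole loci varied less between these classes. Fgf3 had a mean log2 ratio of GABAergic neuron-like to progenitor-like nuclei of 1.15 ± 0.43, Fgf8 of 0.35 ± 0.15, Spry1 of 0.29 ± 0.17 and Fgf17 of 0.25 ± 0.10, higher in 6 of 6 samples each. The Fgf8 and Fgf17 sums include the regions shared with neighbouring genes. At resolution 1.0 Spry1 was at 0.24 ± 0.28, lower in LGE replicate 2, and Fgf17 at 0.06 ± 0.30, lower in LGE replicate 2 and CGE replicate 2. Etv1, at -0.41 ± 0.16, and Spry2, at -0.26 ± 0.08, were lower in 6 of 6, and at resolution 1.0 Etv1, at -0.35 ± 0.27, was higher in CGE replicate 2. Fgf15, at -0.26 ± 0.21, was higher in 1 of 6, Etv4, at 0.11 ± 0.14, in 4 of 6, and Etv5, at 0.05 ± 0.08, in 3 of 6 (SD, n = 6 throughout). In the unnamed clusters, which were mainly CTX replicate 2, Fgf15-e4 was at 90.6 CPM, against 22.2 CPM in the glutamatergic neuron-like nuclei of the same sample. The low Etv1-e15 counts were highest in endothelial-like nuclei, at 32.0 CPM in CTX replicate 2 and 45.4 CPM in LGE replicate 1.

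**Figure D5:**
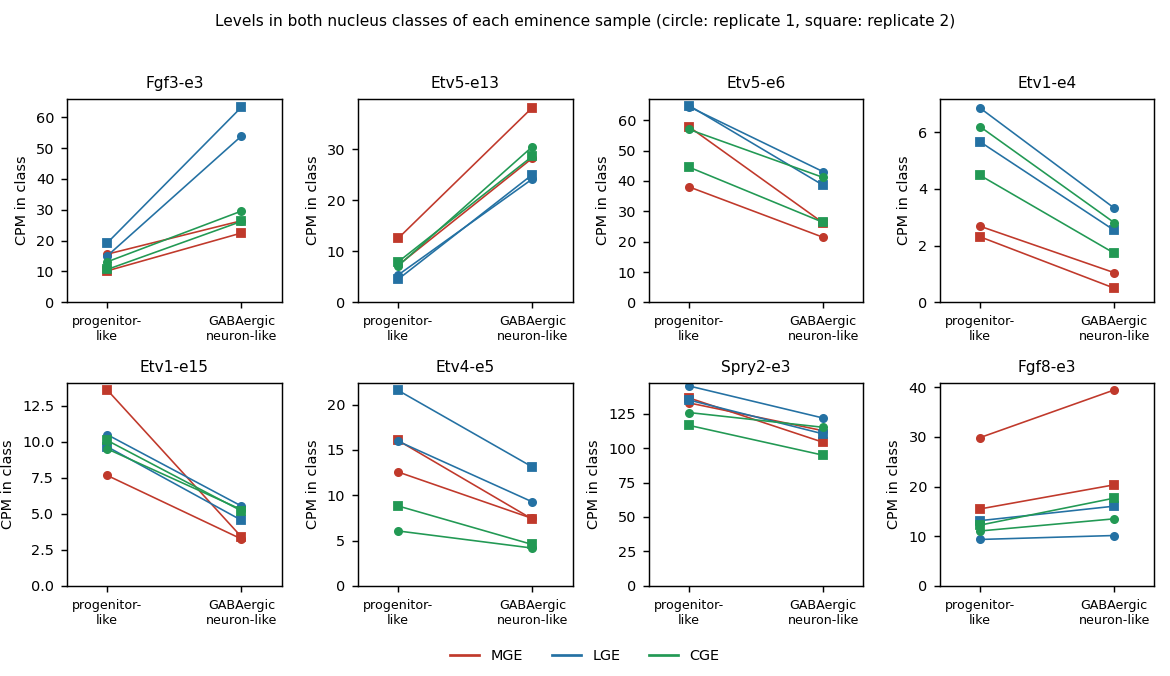
Level in CPM within a class (y axis, from 0) of 8 member regions in progenitor-like and GABAergic neuron-like nuclei. Each line is 1 of the 6 GE samples; Fgf3-e3, Etv5-e13 and Fgf8-e3 are higher in the GABAergic neuron-like class in all 6, and Etv5-e6, Etv1-e4, Etv1-e15, Etv4-e5 and Spry2-e3 are lower in all 6.

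Deposited counts over motif matches of the Etv proteins did not differ beyond the threshold. The counts of the ETV1 and ETV4 motifs were identical in every sample, so they are a single measurement. They were at 382 and 440 CPM of motif counts in CTX, 491 and 465 CPM in MGE, 543 and 495 CPM in LGE, and 473 and 459 CPM in CGE. Both CTX samples were lowest. The log2 fold of CTX against GE was -0.25 (SE 0.09, edgeR adjusted p = 0.182), and the ETV5 motif, at 493 and 576 CPM in CTX and 491 to 715 CPM in the GEs, gave -0.19 (SE 0.11, adjusted p = 0.383). edgeR called 0 of 579 motifs (0%) in each of the 4 comparisons, with 126, 25, 17 and 60 at an unadjusted p under 0.05 in the order used above, and DESeq2 called 90 of them (15.5%) for CTX against GE, the ETV1 and ETV4 motifs among them (adjusted p = 0.05).

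Of 59 other genes of the pathway, 58 were tested. Between CTX and the GEs 2 were called higher and 1 lower in CTX, or 5.17% against 5.46% of all gene windows, and 0 of 58 were called in edgeR's test in each comparison among the GEs, where 0.109%, 0.109% and 0% of all gene windows were. Elk3, an ETS factor gene, was at 240 and 176 CPM in CTX and 84.1 to 117 CPM in the GEs (log2 fold 1.08, SE 0.16, edgeR adjusted p = 0.0141). Dusp14, a dual-specificity phosphatase gene, was at 76.0 and 31.2 CPM in CTX and 16.0 to 25.0 CPM in the GEs (log2 fold 1.41, SE 0.29, adjusted p = 0.0355), and the call was lost without CTX replicate 1 (log2 fold 0.62, adjusted p = 0.141). The ligand gene Fgf4, next to Fgf3, was called lower in CTX (log2 fold -1.07, SE 0.20, adjusted p = 0.0258). Its window includes Fgf3-e3, which gave 46.6% to 81.4% of its counts, so it is no separate result. Without CTX replicate 2, 7 of the 58 were called, against 12% of all gene windows, and without CTX replicate 1, 3 were called, against 4.96%.

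The receptor genes Fgfr1, Fgfr2 and Fgfr3 were called in no comparison. Fgfr1 was at 182 and 195 CPM in CTX and 149 to 184 CPM in the GEs, Fgfr2 at 2195 and 1715 CPM in CTX and 1697 to 1913 CPM in the GEs, and Fgfr3 at 116 and 64.3 CPM in CTX and 70.2 to 115 CPM in the GEs. A gene window counts every peak over its span, those of other genes within it included. Which genes share the Fgfr2 window is not given here, so its far higher sum cannot be read as receptor accessibility. By role, 1 of 18 ligands, 0 of 6 receptors, 1 of 8 tested inhibitors, 0 of 16 transducers and 1 of 10 nuclear targets were called between CTX and GE, against 5.46% of all gene windows. The ligand was Fgf4, whose window includes Fgf3-e3, so it is not separate from Fgf3.

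Across the 8 samples, the gene windows most like each member by Pearson's r of log2 CPM were Kcnj10 and Adipoq for Fgf3 (both 0.97), Nfkbie and Eme2 for Fgf8 (0.99 and 0.98), Ajuba and Grifin for Fgf15 (0.99 and 0.98), and Prdm14 and Krtap5-4 for Fgf17 (0.95 and 0.92). They were Zfp217 and Kctd3 for Spry1 (0.97 and 0.95), Alyref2 and Vps36 for Spry2 (0.99 and 0.97), Ttr and Stk39 for Etv1 (0.98 and 0.97), Cyp46a1 and Sh3bp4 for Etv4 (0.98 and 0.97), and Zkscan6 and Hs3st3a1 for Etv5 (0.95 and 0.94). Ttr is a choroid plexus gene. These are the highest of about as many pairs as there are gene windows tested, over 8 libraries that share region, depth and peak calling, and are given as a description.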

How the data were processed

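Samples were grouped by region from their titles (CTX, MGE, LGE, CGE). Per the submitters' processing notes, the files came from Cell Ranger ATAC 1.2.0 and GRCm38 (mm10). The deposited values are raw counts per nucleus, in peaks that the authors' pipeline called separately in each sample, and over motif matches. All given barcodes were kept, and no doublet caller was run.

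Counts were summed per sample in merged regions, gene windows (GENCODE M21, body and 20 kb upstream) and motifs. CPM was TMM-scaled and relative to the tested features, or, for classes of nuclei, relative to the class's counts in regions shared by all samples. edgeR 4.0.16 (glmQLFit and glmQLFTest, filterByExpr, R 4.3.3) was fitted over all regions, gene windows or motifs: all 8 samples for CTX against the mean of the GEs, and the 6 GE samples among the GEs. Calls are at a Benjamini-Hochberg value of at most 0.05 over the table. DESeq2 1.42.0, other scalings, filters, windows and samples left out were tried.

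Nuclei were clustered on 30 latent semantic components (20 neighbours, Leiden resolution 0.5, scikit-learn 1.9.0, leidenalg 0.10.2). A class needed at least 3 raised markers (10 CPM, log2 fold 0.5) and a mean log2 fold of 0.25 over its list, and classes under 50 nuclei in a sample were left out.

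By rule, the 9 members were named with the start regions and the most accessible region of each, every called region, regions with peaks only in samples of 1 dissected region (those of a single sample are given as counts), the 2 genes most like each member, up to 4 called pathway genes per comparison, and Fgfr1, Fgfr2 and Fgfr3. Fgf3-e1, Fgf17-e7, Fgf8-e1, Fgf8-e2, Etv1-e12, Etv1-e15, Etv1-e20, Etv4-e2 and Etv5-e9 were named after their values were seen. The members, lists, rules and tests were chosen with earlier results of these data known.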

Additional observations from a re-analysis of the deposited data

How the results depend on the processing

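Shares in brackets are those of all regions or gene windows called under the same setting. Of 26 member regions, the count called for CTX against GE was 2 (14.9%), and it was 4 with DESeq2 (23.1%), 1 without TMM factors (14.2%), 1 with the replicate block (13.7%) and 1 to 8 with a sample left out (8 without CTX replicate 1, 24.2%, and 4 without CTX replicate 2, 26.3%). For MGE against LGE it was 2 (10.6%), and 5 with DESeq2 (16.7%), 0 with all 8 samples in a fit (0.694%), 1 with the covered-length offset (6.48%) and 0 to 5 with a sample left out (5 without MGE replicate 2, 13.4%, and 0 without LGE replicate 1, 4.97%). For MGE against CGE it was 0 (9.4%), and 5 with DESeq2 (15.7%), 2 with the replicate block (9.45%), 1 with the covered-length offset (5.09%) and 0 to 2 with a sample left out (2 without MGE replicate 2, 13.5%). For LGE against CGE it was 0 (0.00293%), and 2 with DESeq2 (4.03%) and 1 with the offset (1.21%). When every merged region was tested, 3 of 43 member regions were called for CTX against GE, 3 of 41 for MGE against LGE, 1 of 41 for MGE against CGE and 0 of 41 for LGE against CGE. Of these, 2, 2, 1 and 0 were Etv1-e12 or Etv5-e9, which are listed at 0 in MGE for want of a peak, and those calls support nothing here. No share of all regions is given for this setting, so its counts have no background beside them. Of 9 loci, the 1 called for CTX against GE became 0 with the offset (0.264%) and 0 to 1 with a sample left out (0 without CTX replicate 1 or any LGE or CGE sample). For MGE against CGE a sample left out gave 0 to 1, the 1 being Fgf8 without MGE replicate 2 (log2 fold 0.73, edgeR adjusted p = 0.0484, 2.74%). DESeq2 called 2 ETV motifs for CTX against GE (15.5% of motifs), which hold the same counts and so are 1 measurement. The cause of these changes was not tested.

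Fgf3-e3 was called lower in CTX under all 14 alternatives, with log2 folds from -1.81 to -1.19. Without CTX replicate 2 the log2 fold of CTX against GE turned to -0.11 for Fgf3-e1, -0.39 for Fgf15-e4, -0.53 for Fgf17-e7, -2.06 for Etv1-e3 and -1.0 for Etv4-e5, against 1.67, 0.80, 0.95, 2.09 and 1.46 without CTX replicate 1, and with the offset that of Spry1-e3 for MGE against CGE turned to -0.49. The offset moved the median log2 fold of all gene windows by up to 0.31 (LGE against CGE). At Leiden resolution 1.0 the log2 class ratio was 0.06 for Fgf17, -0.37 for Spry2 and 0.19 for Etv5, and the other 6 members moved by less than the spread between samples, but the values of LGE replicate 2 and CGE replicate 2 then rest on 89 and 53 progenitor-like nuclei.

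The replicate numbers were not taken to pair the samples, since the deviations of same-numbered samples correlated above 0.1 in 3 of 6 pairs of groups and not in all, from -0.033 (MGE and CGE) to 0.490 (LGE and CGE). In these deviations every sample correlated best with a sample of its own number. With 2 samples per group this needs only small positive values, such as 0.090 for MGE and LGE. Odd counts made up 9.54% to 10.4% of entries in replicate 1 samples and 5.17% to 5.85% in replicate 2 samples, so a batch shared by number may exist. Its part in the results was not tested beyond the block. With the replicate block, Etv5-e6 lost its call for CTX against GE (adjusted p = 0.0643 in edgeR), while Etv1-e4 and Etv4-e5 gained calls for MGE against CGE (adjusted p = 0.0463 and 0.0241), and 9335 of all regions were called for CTX against GE in place of 10160. With 2 samples per group, regions under about 2 CPM rest on few counts, and a missing peak gives 0 whatever the reads.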
